A study of Homo sapiens with 8 samples.

Results

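The genes described here are 46 human genes that copy DNA or carry the copied chromosomes through mitosis. They were taken from the array by gene symbol, out of 20046 symbols: 65 of the 47323 probes of the Illumina table carry the symbol of a member. Of these genes 45 were bright enough to test, and the cyclin gene CCNE2 was not. The members fall into 16 genes of origin licensing and firing, 9 of the replication fork and nucleotide supply, 8 for E2F factors, cyclins and CDK1, and 13 of mitosis. The study measured total RNA of BC3 and BCBL1, cell lines of primary effusion lymphoma, a lymphoma of the body cavities whose cells carry Kaposi sarcoma-associated herpesvirus. Each line was kept in medium with the solvent DMSO or with 5 µM lenalidomide, a drug that redirects the cereblon ubiquitin ligase to new substrates, and each of the 4 groups (BC3 with DMSO, BC3 with lenalidomide, BCBL1 with DMSO, BCBL1 with lenalidomide) was read on 2 single-colour arrays. The 8 arrays are described by the submitters as technical replicates, so p-values measure the spread between arrays of a group and not between cultures. The exception is 1 later fit that counts each line as 1 replicate and sets the drug's change against how far that change differs between the 2 lines. No label used here states how long the cells were exposed. A group stands for 1 established cell line and not for the tumour it came from.

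Before a cell copies its DNA, the origin recognition complex, CDC6 and CDT1 load rings made of MCM2 to MCM7 onto chromatin, and CDC45 and the GINS complex join them to form the moving helicase. E2F factors drive the transcription of many of these genes when cells leave G1, cyclin E and cyclin A with their kinases start and sustain S phase, and cyclin B with CDK1 opens mitosis. A later wave of genes then supplies the spindle, its checkpoint and the kinases that part the chromosomes. In dividing lymphoma cells all of these genes are usually transcribed.

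The promoters of the members were searched for words that mark early and late cell cycle genes. RefSeq (GRCh38.p14) promoters were at hand for 38 members, with 47 entries since some genes have several starts, and the 250 bases before each start were searched on both strands. An E2F word (TTTCCCGC, TTTGGCGC, TTTCGCGC or TTTGCCGC) stood in 12 of the 47 entries (25.5%), against 2.79% of the 35116 promoters in the table. A CHR word, the element bound by the DREAM and B-MYB complexes (TTTGAA or TTCGAA, the second of which reads alike on both strands), stood in 12 of 47 (25.5%) against 14.3%. It was found in 7 of the 10 promoters of mitosis genes (70%) and in 1 of the 17 of licensing and firing genes (5.88%). CCAAT stood in 34 of 47 (72.3%) against 32%. No word holds another, although E2F words on opposite strands overlap in the MCM6 promoter. These matches describe letters in a window and say nothing of binding. Shown here are the last 150 bases before the start of the 4 genes that passed the test under lenalidomide, and of BUB1B and KIF11, picked after their values were seen as the mitosis genes with a single promoter entry that changed most in BC3; capitals mark E2F, CHR and CCAAT words.
MCM10, chr10:13161408-13161557, plus strand: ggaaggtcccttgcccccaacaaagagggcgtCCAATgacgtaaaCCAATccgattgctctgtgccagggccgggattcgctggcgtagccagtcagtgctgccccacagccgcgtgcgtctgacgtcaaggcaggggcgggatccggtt
GINS2, chr16:85688955-85689104, minus strand: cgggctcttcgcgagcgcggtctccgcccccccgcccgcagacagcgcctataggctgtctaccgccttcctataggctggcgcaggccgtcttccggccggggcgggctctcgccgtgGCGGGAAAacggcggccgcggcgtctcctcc
E2F2, chr1:23531234-23531383, minus strand: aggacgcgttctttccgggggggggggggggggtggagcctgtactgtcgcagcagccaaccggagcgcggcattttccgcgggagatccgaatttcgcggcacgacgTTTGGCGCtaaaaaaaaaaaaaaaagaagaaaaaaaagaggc
CCNA2, chr4:121823884-121824033, minus strand: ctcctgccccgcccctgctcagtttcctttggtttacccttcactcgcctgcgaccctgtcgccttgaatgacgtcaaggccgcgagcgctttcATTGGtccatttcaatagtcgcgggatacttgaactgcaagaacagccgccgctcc
BUB1B, chr15:40160919-40161068, plus strand: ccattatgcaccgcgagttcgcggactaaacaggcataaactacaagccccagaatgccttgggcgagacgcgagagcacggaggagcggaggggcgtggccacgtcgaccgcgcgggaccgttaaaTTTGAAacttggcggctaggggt
KIF11, chr10:92592980-92593129, plus strand: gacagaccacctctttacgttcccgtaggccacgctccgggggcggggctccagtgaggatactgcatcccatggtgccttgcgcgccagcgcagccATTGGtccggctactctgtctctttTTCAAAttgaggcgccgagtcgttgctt

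The 8 arrays were alike in brightness: their median deposited intensity lay between 137.3 and 153, and 47% to 51.2% of probes stood above background. Normalized log2 intensities correlated at 0.994 to 0.995 between arrays of a group, at 0.988 to 0.99 between treatments of a line and at 0.922 to 0.93 between lines. Checked against marker lists, the lines carried the plasma cell factors IRF4, PRDM1 and XBP1 on 8 of 8 arrays. Of the other plasma cell genes listed, SDC1, TNFRSF17, CD38, SLAMF7 and MUC1 stood above background on 8 of 8. JCHAIN did so on 4 arrays and TNFRSF8 on 0. PAX5, a defining B-cell factor, stood above background on 0 of 8, and of 8 B-cell genes listed only CD79A and CD79B were bright enough to test. The T and NK genes CD8A, NKG7 and GNLY, the myeloid gene LYZ and the endothelial gene VWF were at background on all 8 arrays. Others of these lists were not, and CD2, CD68, FCGR3A, KRT8 and KRT18 stood above it on 8 of 8. With DMSO, EPCAM had a mean deposited intensity of 6570 in BC3 and 149 in BCBL1. Some markers passed the test beside the members. Of 9 epithelial, stromal and endothelial genes KRT8 and CDH1 rose in both lines, and of 9 T and NK genes CD2 rose in both while CD3E and GZMB fell in BC3. In BC3, 3 of 8 myeloid genes rose (S100A8, S100A9 and CD68) and the summed myeloid intensity went from between 1406 and 1601 with DMSO to between 2725 and 3318; in BCBL1 it lay between 1442 and 1473 with DMSO and between 1309 and 1374 with the drug. Of 10 plasma cell genes, TNFRSF17 and SLAMF7 fell in both lines (log2 changes of -0.78 and -0.62 in BC3, -0.64 and -0.87 in BCBL1), JCHAIN fell in BC3 (-0.59), and MUC1 rose in both (3.05 and 0.91). Their summed intensity lay between 23170 and 26320 with DMSO and between 19910 and 26050 with the drug in BC3, and between 19620 and 20630 and then 17380 and 18510 in BCBL1. The part of these markers in the results on the members was not tested.

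Under lenalidomide few members passed the test in either line, and those that did were mostly lower. In BC3, 3 of 45 members fell (GINS2, MCM10 and CCNA2) and 0 rose at a limma adjusted p under 0.05, where 4.37% of the 12864 genes tested passed, 1.18% lower and 3.19% higher. In BCBL1, 1 member fell (GINS2) and 1 rose (E2F2), where 2.88% of all genes passed, 0.731% lower and 2.15% higher. The sign of the change was lopsided in BC3, where 39 of 45 members (86.7%) had a log2 change below 0 against 52.9% of all genes, with a median of -0.20 against -0.01 over all genes. In BCBL1 it was 28 of 45 (62.2%) against 52.2%, with a median of -0.06 against -0.01. At an unadjusted p under 0.05, 10 members were lower and 0 higher in BC3 (7.92% and 8.88% of all genes), and 7 were lower and 2 higher in BCBL1 (7.63% and 8.54%). The arrays of the 2 treatments did not overlap for 29 members that were lower and 1 that was higher in BC3 (25.6% and 22.9% of all genes), and for 16 and 8 members in BCBL1 (23.7% and 21.2%). Since these are bulk cultures, fewer cells in S phase or mitosis and less of an RNA in each such cell cannot be told apart.

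**Figure D1:**
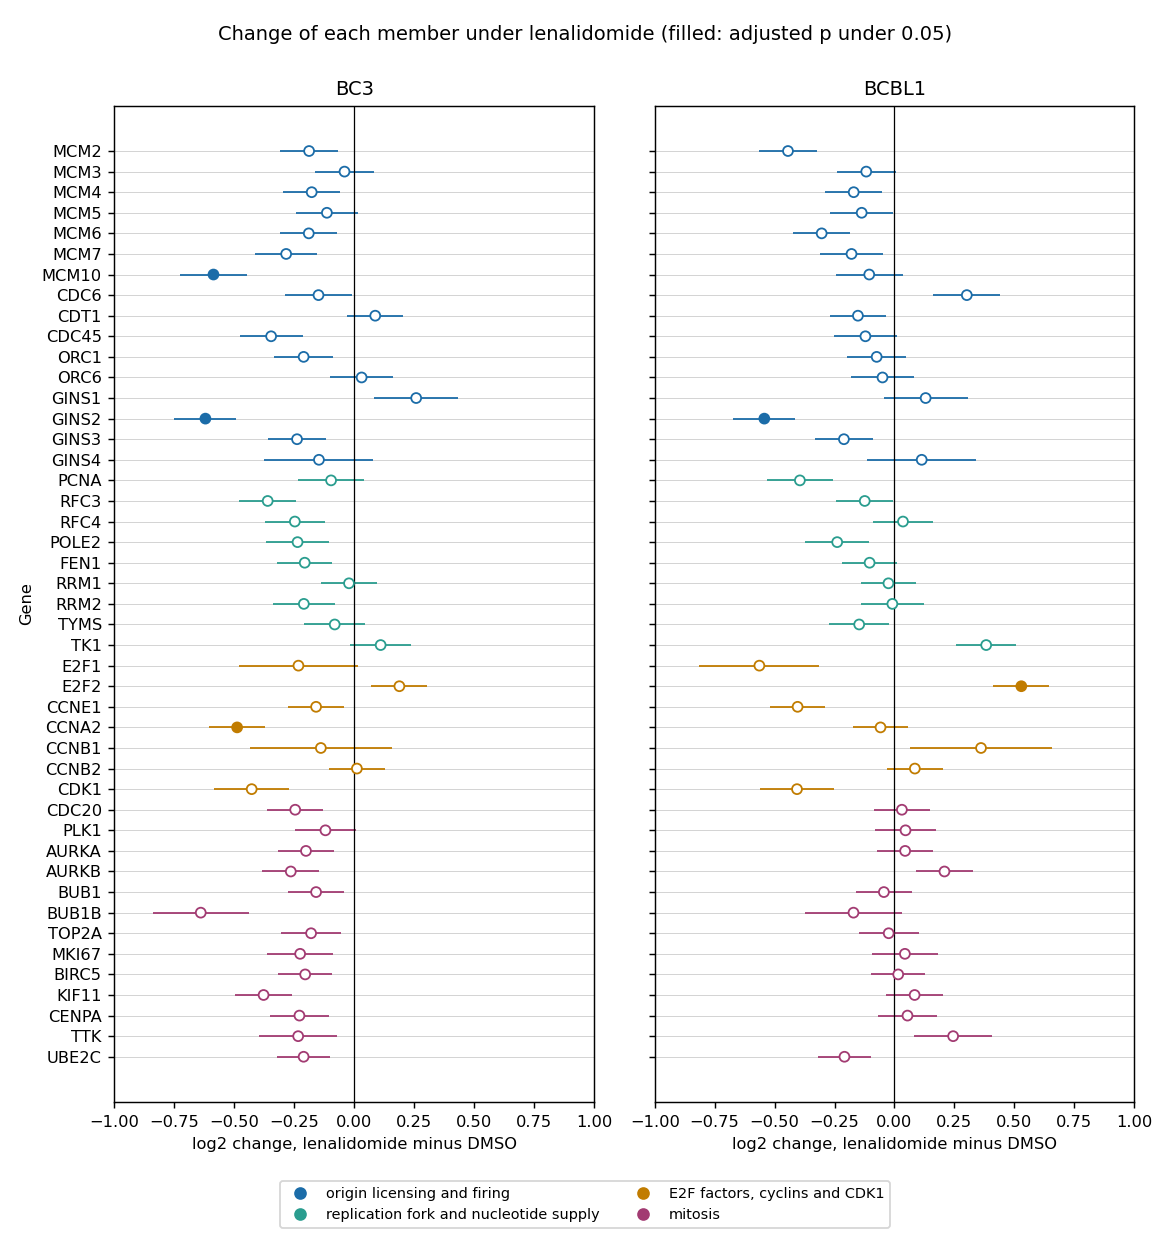
Log2 change of each of the 45 members tested, lenalidomide minus DMSO, in BC3 (left) and BCBL1 (right); points are limma estimates from 2 arrays per group, bars are 1 standard error and filled points have an adjusted p under 0.05. In BC3 39 points lie left of 0 and 3 are filled. In BCBL1 28 lie left of 0 and 2 are filled, and the mitosis genes lie between -0.21 for UBE2C and 0.24 for TTK.

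Among the 16 genes of origin licensing and firing, 13 had a change below 0 in each line (median -0.18 in BC3 and -0.13 in BCBL1). GINS2, a subunit of the GINS complex that makes up the moving helicase, was lower with lenalidomide in both lines. Its normalized log2 intensity in BC3 was 12.15 and 12.32 with DMSO and 11.65 and 11.58 with lenalidomide. In BCBL1 it was 12.00 and 11.72 with DMSO and 11.31 and 11.31 with the drug. Every treated array was below every DMSO array of its line. GINS2 fell by 0.62 ± 0.13 (log2, SE, n = 2 arrays a group; limma adjusted p = 0.015) in BC3 and fell by 0.54 ± 0.13 (adjusted p = 0.0407) in BCBL1. On this scale it decreased by 35% and 31.4%. The other 3 GINS subunits did not pass in either line: GINS3 had log2 changes of -0.24 in BC3 and -0.21 in BCBL1, with arrays that did not overlap, and GINS4 of -0.15 and 0.11. GINS1, at 0.26 and 0.13, stood above background on only 1 of 2 arrays in 3 of the 4 groups.

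MCM10, a factor that helps to switch on the loaded helicase, fell in BC3. Its log2 intensity there was 9.88 and 10.07 with DMSO and 9.44 and 9.33 with lenalidomide, a change of -0.59 ± 0.14 (limma adjusted p = 0.03). In BCBL1 the arrays overlapped, at 10.54 and 10.77 with DMSO and 10.41 and 10.70 with the drug, and the change was -0.11 ± 0.14. The difference between the lines, 0.48 ± 0.20, did not pass (adjusted p = 0.421). A second, dimmer MCM10 probe did not pass in BC3 and gave a difference between the lines near 0 (-0.05 ± 0.20).

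The 6 subunits of the MCM ring, MCM2 to MCM7, all had changes below 0 in both lines, and this held under each scaling tried. Yet none passed the test in the main fit. Without BC3 DMSO array a, or without BC3 lenalidomide array a, 5 of the 6 were below 0 in BC3. The dimmest of the 3 MCM7 probes was at 0.15 ± 0.15 in BC3. The largest of these changes was that of MCM2 in BCBL1, where its log2 intensity was 11.09 and 11.16 with DMSO and 10.76 and 10.59 with lenalidomide. That change of -0.44 ± 0.12 had an adjusted p of 0.0754 in limma, and it passed in 3 of 10 alternatives. In BC3 MCM2 was at -0.19. MCM6 had a log2 change of -0.30 ± 0.12 in BCBL1 and of -0.19 in BC3. MCM3, MCM4, MCM5 and MCM7 were at -0.04, -0.18, -0.11 and -0.28 in BC3 and at -0.12, -0.17, -0.14 and -0.18 in BCBL1. For MCM2, MCM4 and MCM6 the treated arrays lay below the DMSO arrays in both lines; MCM7 was so in BC3, and MCM3 and MCM5 overlapped in both. The loading factors did not share a sign. CDC6, a dim gene that stood above background on 7 of 8 arrays, was at -0.15 in BC3 and at 0.30 ± 0.14 in BCBL1 (adjusted p = 0.311), and CDT1 at 0.09 and -0.15. CDC45, the other partner of the ring, had a change of -0.35 ± 0.13 in BC3 (adjusted p = 0.188) and of -0.12 in BCBL1, and the BC3 arrays of the 2 treatments did not overlap. Of the origin recognition complex, ORC1 was at -0.21 and -0.07 and ORC6 at 0.03 and -0.05.

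At the replication fork and in nucleotide supply, 0 of 9 members passed the limma test in either line, with 1 at an unadjusted p under 0.05 in BC3 and 2 in BCBL1. In BC3, 8 of the 9 had a change below 0 (median -0.21), and in BCBL1 7 of 9 (median -0.10). RFC3 and RFC4, subunits of the clamp loader, had changes of -0.36 ± 0.12 (adjusted p = 0.126) and -0.25 ± 0.13 in BC3. In BCBL1 theirs were -0.12 and 0.04. PCNA, the sliding clamp they load, read 12.36 and 12.56 with DMSO and 12.14 and 11.99 with lenalidomide in BCBL1, a change of -0.39 ± 0.14 (adjusted p = 0.169), and was at -0.10 in BC3. POLE2, a subunit of DNA polymerase epsilon, had a change of -0.24 ± 0.13 in each line, with arrays that did not overlap. FEN1, which trims Okazaki fragments, was at -0.21 and -0.10, again with arrays apart in both lines.

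TK1, the thymidine salvage kinase, had changes above 0. Its log2 intensity in BCBL1 was 11.28 and 11.21 with DMSO and 11.63 and 11.62 with lenalidomide, a change of 0.38 ± 0.13 (limma adjusted p = 0.146). In BC3 its arrays overlapped and the change was 0.11. TYMS, which makes thymidylate from scratch, was at -0.08 in BC3 and at -0.15 in BCBL1. The ribonucleotide reductase subunits RRM1 and RRM2 were at -0.02 and -0.21 in BC3 and at -0.03 and -0.01 in BCBL1.

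Among the E2F factors, cyclins and CDK1, 5 of 7 genes tested had a change below 0 in BC3 (median -0.16) and 4 of 7 in BCBL1 (median -0.06). CCNA2 was lower in BC3 and E2F2 higher in BCBL1. CCNA2 encodes cyclin A, which acts in S phase and G2. In BC3 its log2 intensity was 11.73 and 11.83 with DMSO and 11.34 and 11.24 with lenalidomide, and it fell by 0.49 ± 0.12 (limma adjusted p = 0.03), which is a decrease on this scale to 0.713 of the DMSO level. In BCBL1 it was 11.64 and 11.67 with DMSO and 11.56 and 11.64 with the drug, a change of -0.06 ± 0.12. The groups stood apart in both lines, narrowly in BCBL1, and the difference between the lines, 0.43 ± 0.16, did not pass (adjusted p = 0.374).

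E2F2, an activating E2F factor, rose by 0.53 ± 0.12 in BCBL1 (limma adjusted p = 0.0291), 44.3% on this scale. Its log2 intensity there was 11.21 and 11.34 with DMSO and 11.82 and 11.79 with lenalidomide. In BC3 the treated arrays, at 11.70 and 11.61, also lay above the DMSO arrays, at 11.51 and 11.42, but the change of 0.19 ± 0.12 did not pass. E2F1, its close relative, had a change of the opposite sign: -0.56 ± 0.25 in BCBL1 (adjusted p = 0.287), from 8.21 and 8.37 to 7.63 and 7.83. In BC3 the 2 treated arrays disagreed on E2F1, at 7.20 and 8.22 against 8.16 and 7.72 with DMSO, so that its change of -0.23 ± 0.25 became 0.28 without lenalidomide array a.

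CDK1, the kinase of mitotic entry, had log2 changes of -0.43 ± 0.16 in BC3 (limma adjusted p = 0.17) and of -0.41 ± 0.16 in BCBL1 (adjusted p = 0.213). In BC3 its log2 intensity was 11.36 and 11.29 with DMSO and 10.91 and 10.88 with the drug. In BCBL1 it was 11.13 and 11.54, then 11.11 and 10.75. The treated arrays were below the DMSO arrays in both lines, narrowly in BCBL1. CCNE1, a cyclin E gene of the step into S phase, read 7.45 and 7.59 with DMSO and 7.10 and 7.13 with lenalidomide in BCBL1, a change of -0.40 ± 0.12 (adjusted p = 0.0927), and was at -0.16 in BC3. CCNB1, a cyclin B gene, was uneven between arrays: with DMSO in BCBL1 it read 9.84 and 8.76, and its changes of -0.14 and 0.36 had a standard error of 0.29. CCNB2, the other cyclin B gene, was at 0.01 and 0.08. CCNE2, the second cyclin E gene, stood above background on 2 of 8 arrays, with deposited intensities from 115.7 to 161.1, and was left out of the tests.

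**Figure D2:**
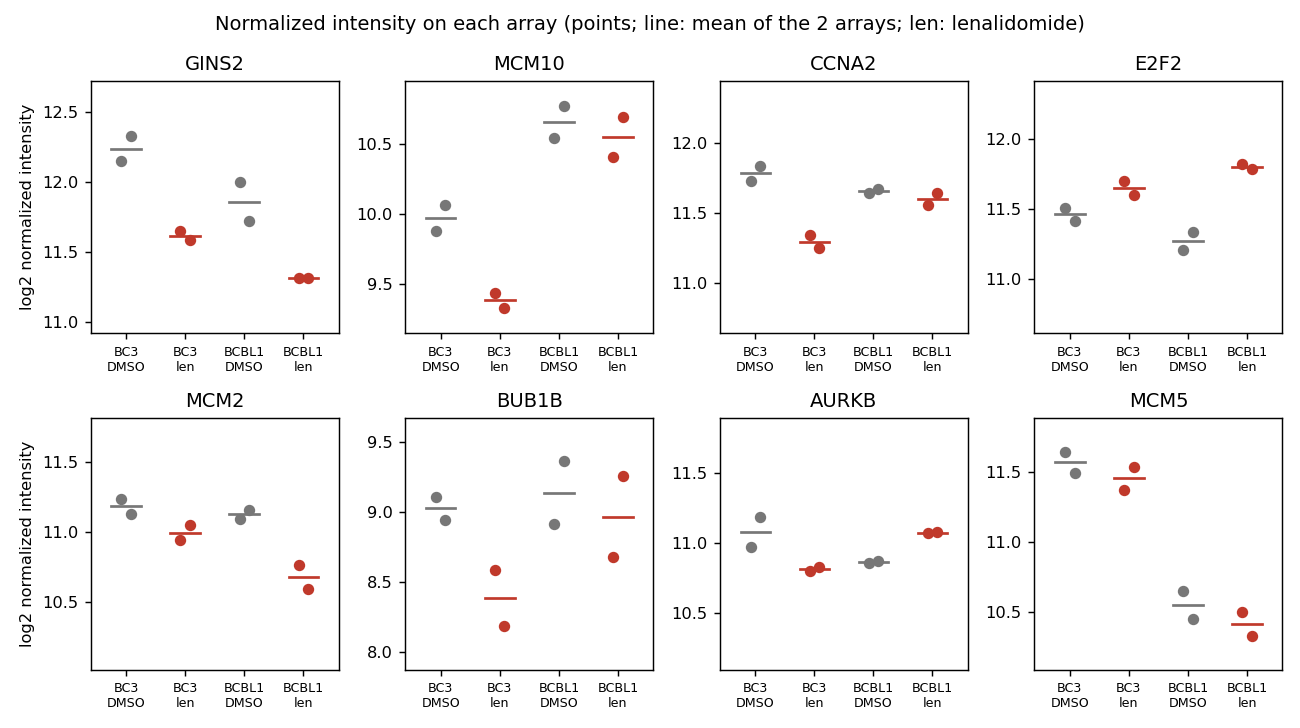
Normalized log2 intensity of 8 members on each of the 8 arrays (points) by line and treatment, with the mean of the 2 arrays (line); each panel spans 1.8 log2 units. Treated arrays of GINS2 lie below the DMSO arrays in both lines, MCM10 and CCNA2 fell in BC3, E2F2 rose in BCBL1, and MCM5 differs between the lines more than between treatments.

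The mitosis genes shared a sign in BC3, although none passed the test. All 13 had a log2 change below 0 there, from -0.64 to -0.12 with a median of -0.23, and for 12 of 13 the treated arrays lay below both DMSO arrays (TTK overlapped), as they did for 25.6% of all genes. Yet 0 of 13 passed the limma test, and 3 were lower at an unadjusted p under 0.05, against 7.92% of all genes. In BCBL1 only 4 of 13 were below 0 with a median of 0.04, and 0 of 13 passed or had an unadjusted p under 0.05. With each array only shifted to the same median, and not quantile normalized, BCBL1 had 11 of 13 below 0, so the direction of this group in BCBL1 depends on the scaling, while BC3 kept 13 of 13. That scaling moved the median change of all genes in BCBL1 from -0.01 to -0.105, and the share of all BCBL1 calls that were higher from 74.6% to 44.5%; the members called were then MCM2 and GINS2, both lower, and E2F2 was not called.

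BUB1B, a gene of the spindle checkpoint, had the largest change of the group. Its log2 intensity in BC3 was 9.11 and 8.94 with DMSO and 8.59 and 8.18 with lenalidomide, a change of -0.64 ± 0.20 (limma adjusted p = 0.108). In BCBL1 its arrays spread from 8.68 to 9.36 and overlapped. KIF11, the motor that pushes spindle poles apart, read 10.77 and 10.72 with DMSO in BC3 and 10.29 and 10.44 with the drug, a change of -0.38 ± 0.12 (adjusted p = 0.11), against 0.08 in BCBL1. AURKB and BIRC5 belong to the chromosomal passenger complex that corrects spindle attachments. AURKB in BC3 read 10.97 and 11.19 with DMSO and 10.80 and 10.82 with lenalidomide, a change of -0.26 ± 0.12 (adjusted p = 0.283). In BCBL1 it read 10.86 and 10.87, then 11.07 and 11.08, a change of 0.21 ± 0.12 (adjusted p = 0.42). BIRC5 was at -0.20 in BC3 and at 0.02 in BCBL1.

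The checkpoint kinases BUB1 and TTK had changes of -0.16 and -0.23 in BC3. In BCBL1 TTK was at 0.24 ± 0.16 (limma adjusted p = 0.503) and BUB1 at -0.04. CDC20 and UBE2C, which drive the anaphase-promoting complex, were at -0.25 and -0.21 in BC3. UBE2C was the 1 mitosis gene whose treated arrays lay below the DMSO arrays in BCBL1 as well, with the same change of -0.21, while CDC20 was at 0.03. PLK1 and AURKA, kinases of the spindle poles, were at -0.12 and -0.20 in BC3 and at 0.05 and 0.04 in BCBL1. CENPA, the histone of the centromere, TOP2A, which untangles DNA, and MKI67, the proliferation marker Ki-67, were at -0.23, -0.18 and -0.23 in BC3 and at 0.05, -0.02 and 0.04 in BCBL1.

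Taking the lines side by side, 26 of 45 members had a change below 0 in both (32.6% of all genes did), 4 were above 0 in both (GINS1, TK1, E2F2 and CCNB2) and 15 had opposite signs. For 12 members (8.99% of all genes) the treated arrays lay below the DMSO arrays in both lines: MCM2, MCM4, MCM6, GINS2, GINS3, RFC3, POLE2, FEN1, CCNE1, CCNA2, CDK1 and UBE2C. The 2 lines' changes correlated at r = 0.413 (rho = 0.305) over the 45 members and at r = 0.437 over all 12864 genes, given as descriptions over genes measured on the same arrays. A direct test of the difference between the lines found 0 of 45 members in limma, where 0.49% of all genes passed. At an unadjusted p under 0.05 there were 5 members, all with the larger value in BCBL1 (4.98% of all genes, with 5.3% the other way): AURKB (0.47 ± 0.17, adjusted p = 0.338), KIF11 (0.46 ± 0.17), CCNA2, MCM10 and CDC6 (0.45 ± 0.20). CCNB1, TTK and BUB1B had differences as large, of 0.50, 0.48 and 0.47, with wider errors of 0.42, 0.23 and 0.28. At the fork the differences were smaller, from -0.30 for PCNA to 0.28 for RFC4. All 13 mitosis genes had a difference above 0 (median 0.27), and 11 of 13 when the arrays were only shifted to the same median. With that shift 0 members had an unadjusted p under 0.05 in limma for the difference, where 1243 of all genes had. That shift also took the median over all 45 members from 0.14 to 0.00474 and the median over all genes from 0.0014 to -0.0913. The members' median thus stood above that of all genes by 0.135 before and by 0.0961 after it.

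**Figure D3:**
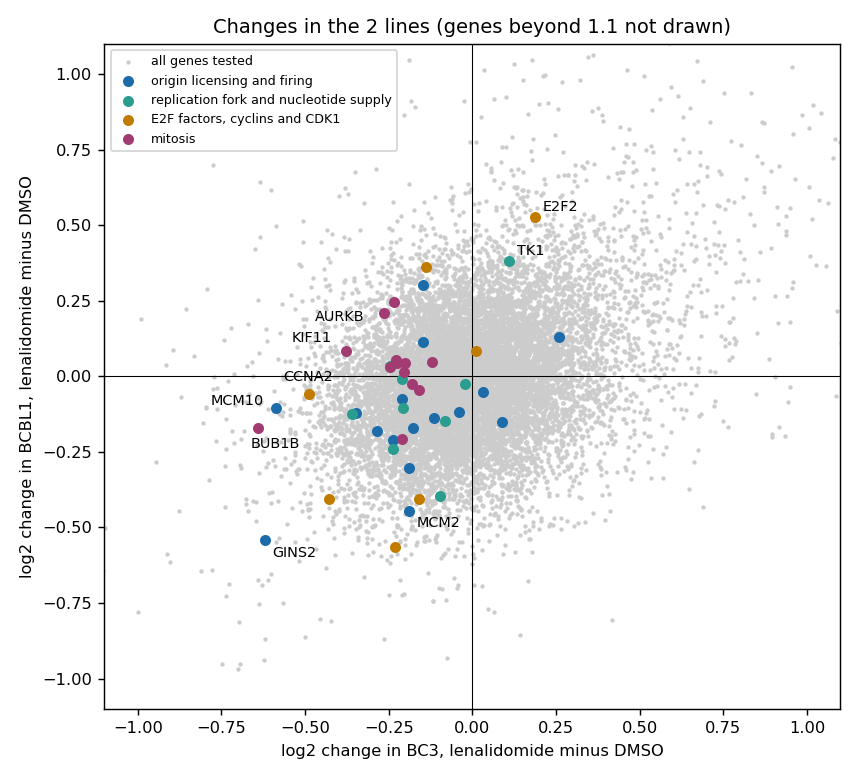
Log2 change under lenalidomide in BC3 (horizontal axis) against BCBL1 (vertical axis) for all 12864 genes tested (grey; genes beyond 1.1 are outside the frame) and the 45 members (coloured by role). Of the members 26 lie in the lower left field, GINS2 farthest out, and mitosis genes lie left of 0 in BC3 and on both sides of 0 in BCBL1.

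Another fit counted each line as 1 replicate and set the drug's change against how far that change differed between the 2 lines. In it GINS2 was the 1 member that passed (fell by 0.58 ± 0.11, limma adjusted p = 0.0287). Of all genes, 0.319% fell and 1.51% rose. With the arrays only shifted to the same median, the share of calls that were higher in this fit went from 82.6% to 58.4%. This fit has 1 residual degree of freedom and borrows nearly all of its error from other genes. CDK1 followed at -0.42 ± 0.11 (adjusted p = 0.109), then E2F1 at -0.40, BUB1B at -0.41 and E2F2 at 0.36. At an unadjusted p under 0.05 this fit had 8 members lower and 1 higher (6.42% and 7.76% of all genes).

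The calls rest on few arrays. Each of the BC3 calls of GINS2, MCM10 and CCNA2 was lost when any 1 of the 4 BC3 arrays was left out, with limma adjusted p between 0.0511 and 0.243, and each kept its sign. The E2F2 call in BCBL1 was lost without any 1 of the 4 BCBL1 arrays (adjusted p 0.0724 to 0.163). The GINS2 call in BCBL1 held only without DMSO array b (adjusted p = 0.0444) and was lost without each of the other 7 arrays (0.0585 to 0.237). With a background offset of 16 in place of 50 all 5 calls were lost (adjusted p 0.0599 to 0.109), as they were in the authors' log2 table (0.0669 to 0.119). MCM10, CCNA2 and E2F2 were also lost with the arrays only shifted to the same median (0.0661, 0.0851 and 0.18), and CCNA2 in BC3 and both BCBL1 calls with no filter on dim probes (0.0578, and 0.0528 for E2F2 and 0.0675 for GINS2). GINS2 with lines as replicates was lost with cyclic loess (0.0658), the offset of 16 (0.23), the authors' table (0.337) and without BC3 DMSO array a (0.0524), BCBL1 DMSO array a (0.106) or BCBL1 lenalidomide array a (0.13).

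With DMSO alone, the lines differed in members on both sides. At a limma adjusted p under 0.05, 14 of 45 members differed, where 40.6% of all genes did. Of the members 7 were higher and 7 lower in BCBL1, against 20% and 20.5% of all genes. BIRC5, the passenger protein survivin, was higher in BCBL1. On its brightest probe its log2 intensity was 9.92 and 9.93 in BC3 and 11.05 and 11.02 in BCBL1, or 2.16-fold higher in BCBL1 (log2 1.11 ± 0.11, adjusted p = 4.42e-06). Its dimmer probe gave a difference of 0.44 ± 0.14, and the mean of its probes 0.775. Also higher in BCBL1 were MCM10 at 0.68 ± 0.14 (adjusted p = 0.00148), TK1 at 0.66 ± 0.13 (adjusted p = 0.000937) and CENPA at 0.50 ± 0.12. TYMS, ORC1 and CCNB2 were higher by 0.45, 0.42 and 0.42. For each of these 7 called genes both BCBL1 arrays lay above both BC3 arrays, as they did for 34.9% of all genes.

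The other 7 members called were lower in BCBL1. MCM5, of the MCM ring, read 11.64 and 11.49 in BC3 and 10.65 and 10.45 in BCBL1, 2.02-fold higher in BC3 (log2 difference -1.02 ± 0.13, limma adjusted p = 3.51e-05). GINS3 read 10.22 and 10.35 in BC3 and 9.37 and 9.35 in BCBL1, 1.9-fold higher in BC3 (adjusted p = 4.85e-05). The lines did not overlap for either gene, and 35% of all genes were likewise apart and lower in BCBL1. MCM4 and GINS2 were lower in BCBL1 by smaller amounts, with differences of -0.45 ± 0.12 (adjusted p = 0.00803) and -0.38 ± 0.13 (adjusted p = 0.0322). The second MCM4 probe gave -0.02 ± 0.16 and did not pass, and with the mean of both MCM4 probes the call was lost (-0.234, adjusted p = 0.113). CCNE1, MKI67 and CDC20 completed the list at -0.49, -0.44 and -0.35; the dimmer CCNE1 probe was at -0.16 ± 0.12. GINS4 had a difference of -0.54 that did not pass, since its BCBL1 arrays read 7.67 and 8.42. E2F1, at 0.35 ± 0.25, and PCNA, at -0.28 ± 0.14, did not pass either. Over all 45 members the median difference was -0.03, against 0.00477 over all genes.

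Some of the line calls were narrow. Those of GINS2 and CDC20 were lost with the arrays only shifted to the same median, the offset of 16, no filter on dim probes, the authors' log2 table and that table with the replicate block, with limma adjusted p between 0.0548 and 0.0968. ORC1 was lost with the median shift (adjusted p = 0.0586), and MKI67 and TYMS in the authors' table with the replicate block (0.0624 and 0.0563). Without BC3 array a the calls of CCNB2, CDC20, MKI67, ORC1 and TYMS were lost, and without BC3 array b that of GINS2. Without BCBL1 array a those of CCNB2, CDC20, CENPA and MKI67 were lost, and without BCBL1 array b those of CDC20, GINS2, MCM4, MKI67, ORC1 and TYMS. In these cases the adjusted p lay between 0.0605 and 0.243. BIRC5, MCM10, TK1, MCM5, GINS3 and CCNE1 passed under each of the 10 alternatives and without each array.

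**Figure D4:**
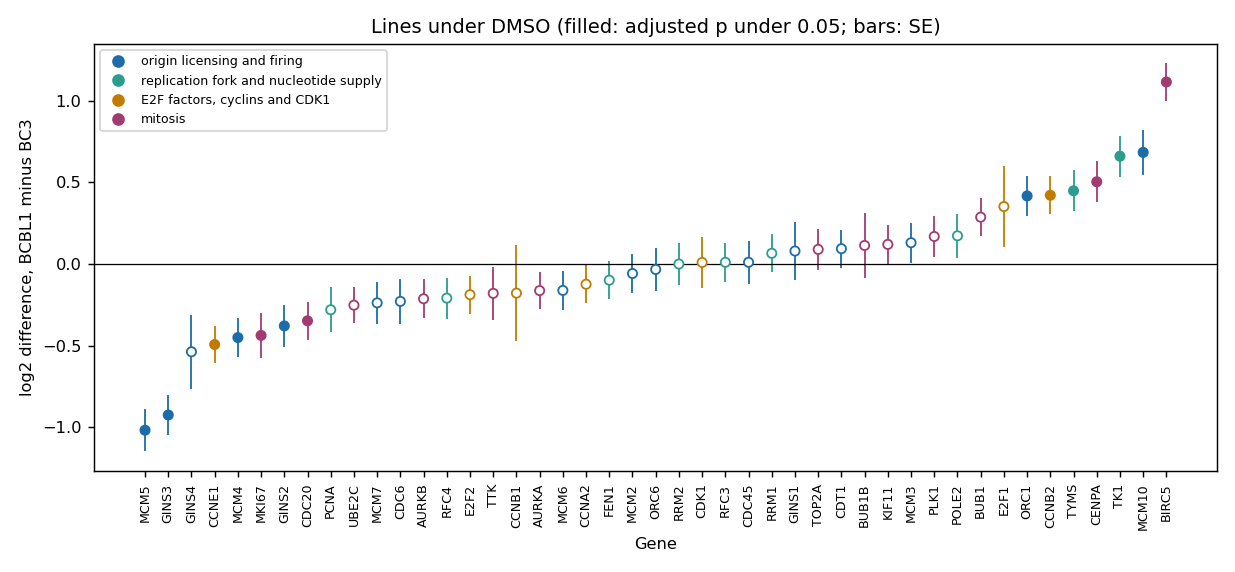
Log2 difference between the lines with DMSO, BCBL1 minus BC3, for the 45 members in order of size; points are limma estimates from 2 arrays per line, bars are 1 standard error and filled points have an adjusted p under 0.05. MCM5 and GINS3 stand at the low end and BIRC5 at the high end, with 7 filled points on each side.

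A wider list of 127 genes of the same pathways, 124 of them tested, gave few calls as well. In BC3, 6 fell and 1 rose in limma (1.18% and 3.19% of all genes did), and 94 of 124 (75.8%) had a change below 0, against 52.9% of all genes. E2F3, an activating E2F factor, fell by 0.69 ± 0.15 (adjusted p = 0.0179) with deposited intensities of 810 and 881.4 with DMSO and 689.2 and 437.6 with lenalidomide. E2F7, a repressing E2F factor, rose by 0.60 ± 0.13 (adjusted p = 0.0212), from 504.1 and 503 to 801.9 and 647.3. The groups stood apart for both. The others that fell in BC3 were PKMYT1, an inhibitory kinase of CDK1 (-0.53), the condensin genes NCAPD3 and NCAPG2 (-0.50 each), DSCC1, of an alternative clamp loader (-0.48), and E2F5 (-0.48). In BCBL1 0 of 124 passed, with 4 higher and 13 lower at an unadjusted p under 0.05 (8.54% and 7.63% of all genes), and 78 of 124 (62.9%) were below 0, against 52.2%. Between the lines with DMSO, 31 were higher and 24 lower in BCBL1 (20% and 20.5% of all genes). RB1, the pocket protein that restrains E2F factors, stood below background on both BC3 arrays with DMSO, at 131.7 and 137, and read 701.5 and 635.1 in BCBL1 (deposited intensities, which still hold the background). On the background-corrected, normalized scale its mean log2 intensity was 6.19 in BC3 and 9.22 in BCBL1, and with BC3 set no lower than the dimmest probes above background it was at least 7.12-fold higher in BCBL1 (limma adjusted p = 5.67e-10). TFDP1, whose product pairs with E2F factors, HMMR, FOXM1, a driver of mitotic genes, and NCAPD3 were higher in BCBL1 by 1.20, 1.32, 0.99 and 1.02 on the log2 scale. RNASEH2A, KIFC1, WDHD1, MYBL2 and ASF1B were lower in BCBL1, with differences of -1.08, -1.08, -0.82, -0.80 and -0.72.

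Several probes stood for 16 members, and the brightest was taken for each. Where they were fitted one by one over all probes, some disagreed. A dimmer RFC3 probe fell by 0.57 in BC3 (limma adjusted p = 0.033) where the brightest was at -0.36. The same fit lost the calls of CCNA2 in BC3 (adjusted p = 0.0527) and GINS2 in BCBL1 (0.0627). It kept those of GINS2 and MCM10 in BC3 (0.0239 and 0.0452) and E2F2 in BCBL1 (0.0487). In BCBL1 the dimmer RFC4 probe was at -0.50 against 0.04 for the brightest, the dimmer MCM10 probe at -0.41 against -0.11, and the dimmer CDK1 probe at 0.06 against -0.41. In BC3 the dimmer MCM10 probe was at -0.36 ± 0.14 and did not pass (adjusted p = 0.259), and its difference between the lines was -0.05 against 0.48 for the brightest. For KIF11 the dimmer probe was at 0.47 in BCBL1 against 0.08. None of the dimmer probes named here passed in BCBL1, and the values given for these genes elsewhere are those of the brightest probe unless stated.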

How the data were processed

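Total RNA of 8 samples was labelled with Cy3 and read on Illumina arrays. The deposited table holds 1 non-normalized intensity per probe and sample, per the file headers; the authors' second table holds log2 values from 4.25 to 15.52 with the same median in every column, and the submitters' processing notes name limma, with no version, and a genome build not given in the sources used here. Columns of the intensity table name line and treatment but no replicate number, so arrays a and b follow column order. Each log2 column, which is numbered, matched 1 intensity column in rank order, but values were not used to number arrays, so the replicate block was fitted on the log2 table alone.

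Intensities were corrected with normexp (offset 50) and quantile normalized in R 4.3.3 with limma 3.58.1, and the log2 change on this offset scale understates the change of dim genes. A probe was kept if both arrays of some group put it above background (p under 0.05 from the spread below each array's mode), which left 24523 of 47322 probes, 1 probe listed at 0 having been dropped. Probe names came from the platform annotation: 30113 probes had 1 symbol, 8 had several and 17201 had none. The brightest kept probe stood for each of 12864 genes; 64 of 65 member probes were kept. One limma fit over the 4 groups gave the changes in each line, their difference and the line difference under DMSO, with 4 residual degrees of freedom, and a second fit took the mean of each line and treatment as 1 replicate. P-values were adjusted by Benjamini and Hochberg over all 12864 genes. The fits were tested on simulated data. The members and lists were chosen with earlier results of these data known. Named were members called in any comparison, the 3 members per role list and comparison with the largest change, and the called genes of the wider list, at most 5 per direction, except that a sixth lower gene in BC3 was named after its value was seen. The small number of arrays limits the precision. Alternatives covered scaling, offset, background correction, probe filter, probe choice, the error prior, the authors' log2 table, the replicate block and leaving out each array.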

Additional observations from a re-analysis of the deposited data

Results flagged for a closer look

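For 3 mitosis genes the treated arrays of the brightest probe lay below the DMSO arrays in BC3 and above them in BCBL1, narrowly so for CDC20 and AURKA in BCBL1. Of all genes, 25.6% were apart and lower in BC3 and 21.2% were apart and higher in BCBL1. The share with both was not counted. For the dimmer AURKA probe the treatments overlapped in both lines, with changes of -0.07 in BC3 and 0.07 in BCBL1. The difference of the log2 change, BCBL1 minus BC3, was 0.473 for AURKB, the Aurora kinase of the chromosomal passenger complex, 0.277 for CDC20, the activator of the anaphase-promoting complex, and 0.246 for AURKA, the Aurora kinase of the spindle poles. Tested directly in limma none of the 3 passed, with adjusted p of 0.338, 0.62 and 0.667. With the arrays only shifted to the same median, CDC20 and AURKA in BCBL1 turned to -0.136 and -0.124, the same sign as in BC3, and AURKB went to 0.0401, so the opposite directions of CDC20 and AURKA depend on the scaling.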

How the results depend on the processing

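BC3 members called were 1 with arrays shifted to the same median and 0 with an offset of 16 or from the authors' log2 table, and genes called were 339 and 361 in the last 2. BCBL1 members called were 0 with offset 16, with no filter on dim probes and from the authors' table, and genes called were 194 with offset 16 and 221 from that table; the BCBL1 median of the members was -0.213 with median shift. For the difference between lines, genes called were 21 with offset 16, 30 with probes above background on all 8 arrays and 30 from the authors' table. Its median over the members was 0.00474 with median shift, where that of all genes was -0.0913. With lines as replicates, members called were 4 (median shift), 0 (cyclic loess), 0 (offset 16), 2 (no background correction), 3 (intensity trend) and 0 (authors' table), and genes called were 500, 140, 20, 500 with the trend, and 0. With the replicate block, on the authors' table, BC3 had 0 members and 252 genes called, BCBL1 0 and 144, and the difference 9 genes. Same-numbered arrays showed little shared deviation over genes (r from -0.0754 to 0.0456). Such a correlation cannot settle whether the numbers stand for a pairing. With the mean of a gene's probes, the RFC4 difference turned to -0.0722, the PCNA line difference to 0.062 and KIF11 with lines as replicates to 0.0087, since their probes disagree. The cause of the other shifts was not tested.

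Leaving out 1 array gave these ranges. In BC3 there were 0 to 3 members called, 206 to 552 genes and a median from -0.24 to -0.159; the lone array of a group is then assumed to vary like the others. In BCBL1 there were 0 to 1 members, 150 to 326 genes and a median from -0.0734 to -0.04. For the difference there were 0 members, 25 to 45 genes and a median from 0.0846 to 0.164. Between lines with DMSO there were 9 to 14 members, 3878 to 5262 genes and a median from -0.107 to -0.00433. With lines as replicates there were 0 to 2 members and 47 to 383 genes. E2F1 in BC3 ran from -0.74 to 0.275, and the differences of CCNB1 and GINS4 ran from -0.0388 to 1.04 and from -0.117 to 0.638. Apart from left-out arrays, 683 of 765 repeats kept the direction and side of the threshold, or a like count or median. These include members that were not called and stayed so, which says little of the calls. Of 10 alternatives, the CCNA2 and E2F2 calls were lost in 5 each and MCM10 in 4. GINS2 was lost in 3 in BC3 and in 4 in BCBL1. Signal over background limits CDC6, GINS1 and CCNE2.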
